A study of Homo sapiens with 24 samples.

Results

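The genes described here belong to the integrated stress response or are known for upstream open reading frames (uORFs). They are 10 genes chosen by name and found by Ensembl identifier in all 24 count tables, out of 20426 genes listed in every table. They are the transcription factors ATF4, ATF5 and DDIT3, the phosphatase subunits PPP1R15A and PPP1R15B, the uORF-regulated transcript IFRD1, and the ATF4 target genes ASNS, TRIB3, CHAC1 and SESN2. All 10 passed the filter on low counts and entered a fit of 11938 genes.

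The study measured ribosome-protected fragments (RPF, or footprints: mRNA stretches covered by ribosomes) and INPUT RNA in 6 cell populations, with 2 libraries of each kind. HCT116, HCT15 and SW620 are colorectal cancer lines labelled wild type. HCT15 cells were also profiled with overexpression of COPS7B, a subunit of the COP9 signalosome, and as a line named for PLVX and labelled wild type, called the vector line here. The line 841CON is labelled as normal colon epithelium and served as the comparison for the 3 cancer lines. All cells received cycloheximide, which stalls elongating ribosomes, at 100 µg/mL for 10 minutes. Each line was grown in its own medium (RPMI for HCT116, DMEM for HCT15, L15 without a CO2 chamber for SW620, EMEM for 841CON), so medium and line cannot be told apart. The labels do not say whether replicate libraries are separate cultures. The p-values therefore reflect how far libraries differed, which may be technical. How the INPUT RNA was prepared, and whether the engineered lines are clones or pools, is not given in the sources used here. The labelled cell types and the COPS7B overexpression were not checked against marker genes here, because only the 10 identifiers were paired with names.

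In the integrated stress response, kinases that sense amino acid shortage, misfolded protein, viral RNA or heme deficiency phosphorylate the initiation factor eIF2. General initiation then slows, while certain mRNAs with uORFs are translated better, ATF4 foremost among them. ATF4 switches on genes for amino acid supply and stress adaptation, and PPP1R15A brings a phosphatase back to eIF2 to end the response. Many of these mRNAs are regulated at the step of translation as well as in their abundance, which is what footprints set against INPUT RNA can separate.

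Translation efficiency (TE) here is the footprint level relative to the INPUT level of the same gene. It was tested as an assay by line interaction in edgeR's quasi-likelihood model, and a gene was called at a Benjamini-Hochberg adjusted p under 0.05 over all genes tested. Levels are counts per 1000000 library counts (CPM) after trimmed-mean scaling within each assay and can be compared between libraries for 1 gene, not between genes, and each change is on the log2 scale with its standard error (SE). The INPUT level enters the mRNA change and the TE change with opposite signs, and the comparisons of the 3 cancer lines share the 841CON libraries. A gene's footprints were counted as 1 total, so footprints in a uORF and in the main coding sequence cannot be told apart.

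INPUT libraries held 1237231 to 9105954 counts in genes and RPF libraries 84262 to 4679279, the SW620 footprint libraries being the smallest at 98043 and 84262. Replicates were very close in 4 groups (biological coefficient of variation 0.0382 to 0.0657) and farther apart in the other 8, up to 0.730 in 841CON INPUT. Of the genes averaging 50 or more INPUT counts, 9.72% had no footprint in HCT116, against 3.89% in 841CON. Footprints in HCT15, SW620, the vector line and the COPS7B line were missing for 0.916%, 2.23%, 0.224% and 0.126% of such genes. In RefSeq (GRCh38.p14), 4 of the 10 genes share part of their span with another gene: ASNS, DDIT3, IFRD1 and ATF5. Whether the counting used strand is not given in the sources used here. The tables of the vector and COPS7B lines list ambiguous reads apart from the gene counts, and the other tables hold no such line. The counts of these 4 genes are uncertain on that account.

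Some of the 10 genes, ATF4 and DDIT3 among them, carried more footprints per INPUT RNA in cancer lines than in 841CON. In HCT116, TE was higher than in 841CON for 4 of the 9 genes tested (ATF4, DDIT3, PPP1R15A and SESN2) and lower for IFRD1. ATF5, among the 9, had 0 footprint counts in both lines. Over all 8502 genes tested in that comparison, 15.1% were called higher and 30.6% lower. In HCT15, TE was higher for 5 of 9 (ATF4, ATF5, DDIT3, PPP1R15A and SESN2) and lower for 0, against a background of 11.6% higher and 5.08% lower. In SW620, TE was higher for 2 of 8 (ATF4 and DDIT3) and lower for 0, against 8.38% higher and 9.70% lower. The median log2 TE change of the genes tested was 2.01 in HCT116, 2.11 in HCT15 and 1.07 in SW620, beside -0.59, 0.30 and -0.28 for all genes. With genes at 0 in 841CON set to their bounds, which take mean INPUT levels, these medians are the same to 2 decimals. In HCT15, 0 of the 5 calls remained when only the HCT15 and 841CON libraries were fitted, a fit that called 0 of 8517 genes, or when close replicate pairs were summed.

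**Figure D1:**
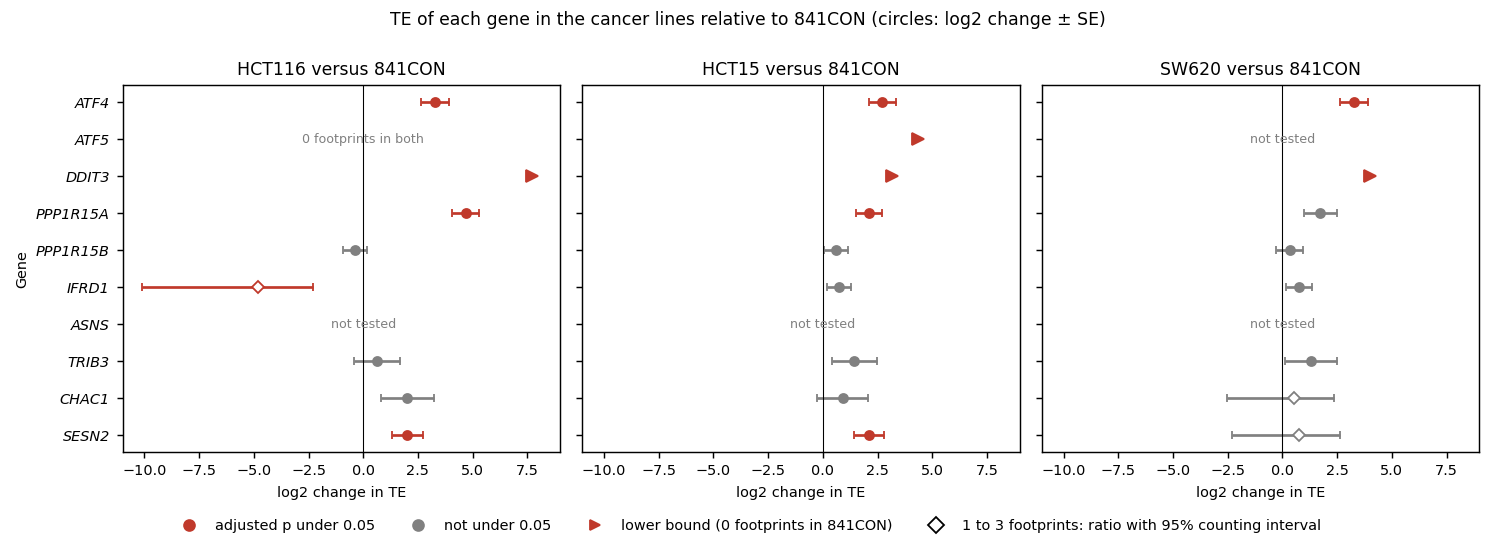
Log2 change in TE (x axis) of each gene (rows) in HCT116, HCT15 and SW620 relative to 841CON. Circles show the edgeR estimate ± SE from 2 libraries a group, triangles a lower bound, taking mean INPUT levels, where 841CON had 0 footprints, and open diamonds a ratio with its 95% counting interval where a group had 1 to 3 footprints. Red marks adjusted p under 0.05: ATF4 and DDIT3 are red in all 3 panels, and IFRD1 lies to the left of 0 in HCT116.

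The INPUT RNA of the same genes showed no common direction. In HCT116, 1 of 10 was higher than in 841CON (ASNS) and 3 were lower (PPP1R15A, IFRD1 and CHAC1), with a background of 19.0% higher and 21.0% lower. In HCT15, TRIB3 was higher and PPP1R15A lower, with a background of 16.7% and 18.7%. In SW620, 3 of 10 were higher (IFRD1, ASNS and DDIT3) and 4 lower (PPP1R15A, CHAC1, SESN2 and ATF5), with a background of 21.9% and 22.5%.

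Footprints rose for 5 of 10 genes in HCT116 (ATF4, DDIT3, PPP1R15A, ASNS and TRIB3) and fell for IFRD1, where 22.6% of all genes rose and 36.7% fell. In HCT15 they rose for 5 of 10 (ATF4, ATF5, DDIT3, ASNS and TRIB3) and fell for 0, where 28.9% of all genes rose and 21.1% fell. In SW620 they rose for 4 of 10 (ATF4, ATF5, DDIT3 and IFRD1) and fell for CHAC1, where 18.9% rose and 18.9% fell.

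**Figure D2:**
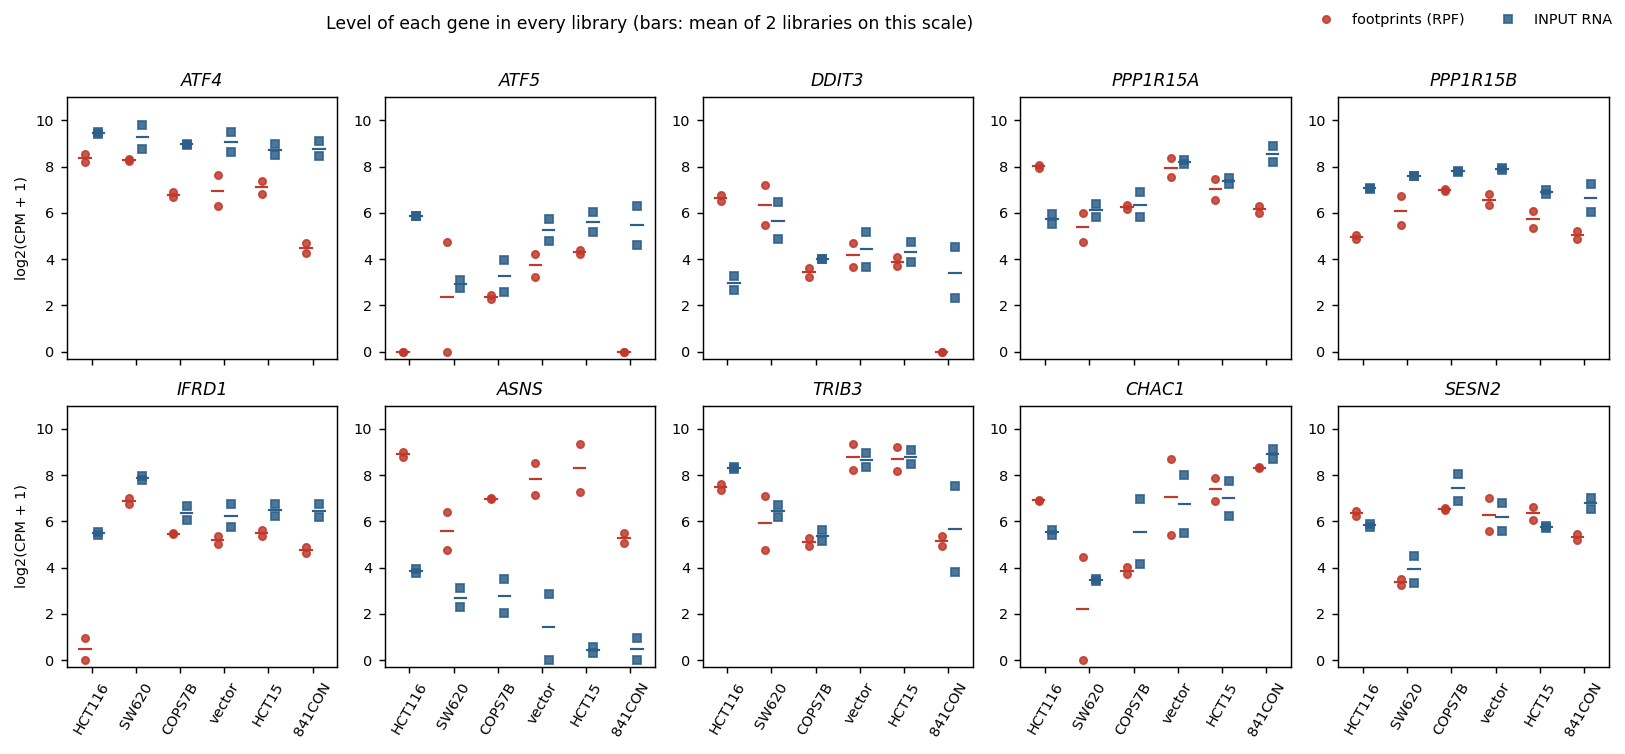
Level of each gene in every library as log2(CPM + 1) (y axis), by cell population (x axis), with footprints as red circles, INPUT RNA as blue squares and a bar at the mean of 2 libraries. The ATF4 INPUT squares lie close together across lines while its circles are lowest in 841CON, and the DDIT3 and ATF5 circles sit at 0 in 841CON.

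ATF4 (ENSG00000128272, chr22:39520559-39522686), the central transcription factor of the response, had similar INPUT RNA everywhere and far more footprints in the cancer lines. Its INPUT level was 669 and 717 CPM in HCT116, 498 and 360 CPM in HCT15, and 884 and 432 CPM in SW620, against 346 and 550 CPM in 841CON. No INPUT change was called in any of the 3 lines (log2 0.63, -0.06 and 0.55, adjusted p at least 0.251). Its footprints were 372 and 291 CPM in HCT116, 166 and 113 CPM in HCT15, and 301 and 317 CPM in SW620, against 25.1 and 18.4 CPM in 841CON. Every cancer library was above both 841CON libraries. TE was 9.74-fold higher in HCT116 (log2 3.28, SE 0.62, adjusted p = 0.000376), 6.59-fold in HCT15 (log2 2.72, SE 0.62, adjusted p = 0.00597) and 9.57-fold in SW620 (log2 3.26, SE 0.65, adjusted p = 0.00265). The differences of TE among the 3 cancer lines did not pass the test (adjusted p = 0.631). The HCT116 call was kept in all 7 alternative fits and without each of the 8 libraries. The TE call in SW620 was lost when close replicate pairs were summed (adjusted p = 0.0570), and that in HCT15 under the 2 fits named above (adjusted p = 0.132 and 0.134), while footprint calls in all 3 lines were kept throughout.

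Set against other genes of the same line, the ATF4 ratio of footprints to INPUT was below the median gene in all 6 populations. Among genes averaging 10 or more INPUT counts, the ratio stood at percentile 46.9 in HCT116, 16.3 in HCT15 and 32.6 in SW620, against 8.13 in 841CON. In the COPS7B line it was at percentile 2.23 and in the vector line at 6.15. In HCT116, where more genes had no footprint, IFRD1 with 1 footprint count stood at percentile 20.9.

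ATF5 (ENSG00000169136, chr19:49928906-49933935), a factor related to ATF4 whose mRNA also carries uORFs, had 0 footprint counts in both HCT116 and both 841CON libraries. In HCT15 it had 20.3 and 17.6 CPM of footprints, and in SW620 25.8 and 0 CPM, the first of these being 3 counts. INPUT RNA was present in every line, at 58.0 and 56.9 CPM in HCT116, 65.2 and 35.4 CPM in HCT15, and 7.67 and 5.84 CPM in SW620, against 23.6 and 77.8 CPM in 841CON. HCT116 and 841CON therefore had ATF5 RNA with no counted footprint, where a count of 0 over the pair has an upper 95% Poisson limit of 3.69 counts. TE in HCT15 was at least 20.1-fold higher than in 841CON (adjusted p = 0.00373), taking 3 counts for 841CON, the lower 95% Poisson limit for HCT15 and the mean INPUT levels. The bound moved to 9.35-fold without 841CON INPUT replicate 2, the library with more ATF5 RNA. With both INPUT libraries, the lower limit of an exact 95% counting interval, which does not set 841CON to 3 counts, was 19.7-fold. The call was kept without each of the 8 libraries and lost in the fit of the 2 lines alone (adjusted p = 0.127) and with close pairs summed (adjusted p = 0.0553). In SW620, INPUT RNA fell by 2.94 on the log2 scale (SE 0.83, adjusted p = 0.00811), a call lost without 841CON INPUT replicate 2 (adjusted p = 0.0944) or SW620 INPUT replicate 2 (adjusted p = 0.0775), or in the fit of the 2 lines alone (0.0527). TE was not tested there because the mean INPUT count was under 10, and the footprint call (adjusted p = 0.00533) rested on the 3 counts of replicate 1, without which both groups were at 0. RefSeq places IL4I1 and NUP62 over 11.9% of the ATF5 span and MIR4751 within it.

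DDIT3 (ENSG00000175197, chr12:57516588-57520517) encodes CHOP, a transcription factor that promotes cell death under prolonged stress. It also had 0 footprint counts in both 841CON libraries, and it had footprints in all 10 other RPF libraries. Footprints were 91.0 and 107 CPM in HCT116, 16.1 and 11.98 CPM in HCT15, and 43.0 and 148 CPM in SW620. INPUT RNA was 8.67 and 5.44 CPM in HCT116, 13.5 and 26.1 CPM in HCT15, and 87.6 and 27.9 CPM in SW620, against 21.7 and 4.03 CPM in 841CON. HCT116 thus paired some of the lowest INPUT levels with high footprints, and SW620 was high in both. The SW620 footprint values are 5 and 14 counts.

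Against 3 counts for 841CON, TE of DDIT3 was at least 209-fold higher in HCT116 (adjusted p = 8.40e-05), at least 8.88-fold in HCT15 (adjusted p = 0.0170) and at least 16.2-fold in SW620 (adjusted p = 0.00652). These bounds take the mean INPUT levels and leave out their spread, and the HCT116 INPUT value rests on 24 counts. Without 841CON INPUT replicate 1, the library with more DDIT3 RNA, they moved to 65.5-fold in HCT116, 2.78-fold in HCT15 and 5.06-fold in SW620. TE differed among the 3 cancer lines (adjusted p = 0.0125), a call lost without HCT116 INPUT replicate 2 (adjusted p = 0.0670) or with close pairs summed (0.111). The HCT116 call was kept in all 7 alternative fits and without each library. The HCT15 call was lost without 841CON INPUT replicate 1 (adjusted p = 0.0559), 841CON RPF replicate 1 (0.114) or replicate 2 (0.0559), and the SW620 call without 841CON RPF replicate 1 (0.0511), in the fit of the 2 lines alone (0.0616) and with close pairs summed (0.0505). In the main fit, INPUT RNA was called higher in SW620 alone among the 3 lines (log2 2.28, SE 0.82, adjusted p = 0.0309). The call was lost without 841CON INPUT replicate 2 (log2 1.39) or SW620 INPUT replicate 1 (log2 1.23). It was also lost in the fit of the 2 lines alone (0.170) and with close pairs summed (0.0755). Without 841CON INPUT replicate 1, INPUT RNA was called higher in HCT15 too (log2 2.38). A protein-coding RefSeq gene, LOC128125814, covers 70.5% of the DDIT3 span, and MARS1 and MIR616 also overlap it.

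PPP1R15A (ENSG00000087074, chr19:48872421-48876058) encodes GADD34, the stress-induced subunit that directs phosphatase to eIF2. It had less INPUT RNA in the cancer lines and more footprints per RNA in HCT116 and HCT15. INPUT RNA was 61.4 and 45.5 CPM in HCT116, 152 and 180 CPM in HCT15, and 83.3 and 55.8 CPM in SW620, against 469 and 290 CPM in 841CON. Every library of these 3 cancer lines was below both 841CON libraries, while the vector line, at 311 and 272 CPM, overlapped 841CON. INPUT RNA fell in HCT116 (log2 -2.83, SE 0.44, adjusted p = 6.31e-05), HCT15 (log2 -1.19, SE 0.41, adjusted p = 0.0295) and SW620 (log2 -2.45, SE 0.44, adjusted p = 0.000195). Calls in HCT116 and SW620 were kept throughout, and that in HCT15 was lost without 841CON INPUT replicate 1 (adjusted p = 0.238), HCT15 INPUT replicate 1 (0.253) or replicate 2 (0.0622), and in 4 of 7 alternative fits.

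Footprints of PPP1R15A were 269 and 244 CPM in HCT116, 176 and 93.9 CPM in HCT15, and 25.8 and 63.4 CPM in SW620, against 78.6 and 62.8 CPM in 841CON. HCT116 and HCT15 were above 841CON, and SW620, with 9 counts over its pair, overlapped it. The HCT15 footprint change was not called in the main fit, though it was called without trimmed-mean scaling (0.0259). TE was 25.6-fold higher in HCT116 (log2 4.68, SE 0.61, adjusted p = 1.29e-05), and the footprint change made up log2 1.85 of it (SE 0.43, adjusted p = 0.000981). TE was 4.32-fold higher in HCT15 (log2 2.11, SE 0.58, adjusted p = 0.0186), and in SW620 it did not pass the test (log2 1.74, SE 0.77, adjusted p = 0.119), though it did with DESeq2 (0.0472). The HCT116 call was kept in all 7 alternatives and without each library. The HCT15 call was kept in 3 of 8 fits without 1 library; it was lost without 841CON INPUT replicate 1, either 841CON RPF library, HCT15 INPUT replicate 1 or HCT15 RPF replicate 1 (adjusted p 0.0567 to 0.0865). TE differed among the 3 cancer lines (adjusted p = 0.00185), a call kept in all 8 alternative fits and without each of 12 libraries. The ratio of footprints to INPUT stood at percentile 95.3 in HCT116 and at 15.9 in 841CON. It was between 44.5 and 46.0 in HCT15, SW620, the vector line and the COPS7B line.

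PPP1R15B (ENSG00000158615, chr1:204395826-204411817), the constitutive counterpart of PPP1R15A, was not called in the main fit of the 3 comparisons for INPUT RNA, footprints or TE. Settings that called its INPUT RNA or footprints are named at the end of its account. INPUT RNA was 129 and 136 CPM in HCT116, 124 and 112 CPM in HCT15, and 191 and 190 CPM in SW620, against 151 and 64.6 CPM in 841CON. Footprints were 28.7 and 32.0 CPM in HCT116, 39.9 and 67.0 CPM in HCT15, and 43.0 and 106 CPM in SW620, against 28.4 and 36.0 CPM in 841CON. The SW620 values are 5 and 10 counts. Its TE change was -0.39 in HCT116 (SE 0.56), 0.60 in HCT15 (SE 0.54) and 0.33 in SW620 (SE 0.62), with adjusted p of 0.593, 0.475 and 0.748. The footprint change in SW620 (log2 1.18, adjusted p = 0.0735) passed the test with DESeq2 (0.0201) and also without trimmed-mean scaling, as did that in HCT15 without such scaling (0.0378). The INPUT change in SW620 (log2 0.84, adjusted p = 0.0755) passed it without such scaling (0.0164) and with trimmed means over all 24 libraries (0.0457). Without 841CON INPUT replicate 1, INPUT RNA was called higher in SW620, HCT116 (log2 1.06) and HCT15 (log2 0.98). Footprints were called higher in HCT15 without HCT15 RPF replicate 1 (log2 1.07) and in SW620 without SW620 RPF replicate 1 (log2 1.71).

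IFRD1 (ENSG00000006652, chr7:112423174-112477203) encodes a transcriptional coregulator whose mRNA is known for a uORF that governs its decay as well as its translation. It was nearly empty of footprints in HCT116 and rich in them in SW620. Footprint counts were 0 and 1 in HCT116 and 15 and 10 in SW620. Footprints were 48.3 and 40.8 CPM in HCT15 and 129 and 106 CPM in SW620, against 29.2 and 23.7 CPM in 841CON. INPUT RNA was 46.0 and 42.0 CPM in HCT116, 73.7 and 106 CPM in HCT15, and 252 and 219 CPM in SW620, against 71.6 and 105 CPM in 841CON. HCT116 was lowest and SW620 highest in both assays.

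In HCT116 the footprints of IFRD1 were 55.9-fold lower than in 841CON (95% counting interval 9.83 to 2229; adjusted p = 5.83e-06). TE was 27.8-fold lower (counting interval 4.89 to 1110; adjusted p = 0.000669), in a line where 9.72% of genes with ample INPUT had no footprint at all. INPUT RNA in HCT116 fell by 1.02 on the log2 scale (SE 0.40, adjusted p = 0.0470), a call lost without 841CON INPUT replicate 2 (0.239) or either HCT116 INPUT library (0.188 and 0.263), and in 5 of 7 alternative fits. In SW620 footprints rose (log2 2.15, SE 0.47, adjusted p = 0.00158) and INPUT RNA rose (log2 1.40, SE 0.39, adjusted p = 0.00685), while TE did not pass the test (log2 0.74, SE 0.60, adjusted p = 0.408). The INPUT call in SW620 was lost without 841CON INPUT replicate 1 (0.0554) or SW620 INPUT replicate 1 (0.0556), or in the fit of the 2 lines alone (0.0825). TE differed among the 3 cancer lines (adjusted p = 0.000264), a call kept in all 8 alternative fits and without each of 12 libraries. The noncoding RefSeq gene LOC105375457 overlaps 41.0% of the IFRD1 span.

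The 4 remaining genes act downstream of ATF4, which binds composite C/EBP-ATF elements in the promoters of its targets. RefSeq promoter windows of 300 bases (250 before and 50 after a transcription start, GRCh38.p14) were searched for TGATGNAA on both strands. The letters occurred in at least 1 window of 4 of the 10 genes, and in 3.62% of all 35116 windows (4.46% of 27305 gene symbols). The 4 matches are shown so that their letters and places can be read, a match being a description and not a site, with the match in capitals and 30 bases in all, 5′ to 3′ on the strand of the gene.
ASNS, chr7:97872458-97872487, minus strand, 68 bases before the start: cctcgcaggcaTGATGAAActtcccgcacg
CHAC1, chr15:40953251-40953280, plus strand, 209 bases before the start, match on the opposite strand: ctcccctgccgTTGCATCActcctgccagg
PPP1R15B, chr1:204412026-204412055, minus strand, 227 bases before the start: cccgccccggcTGATGCAAcctcacgctgc
IFRD1, chr7:112452065-112452094, plus strand, 19 bases after the start: gctctccatgtTGATGAAAttcattcttta
The ASNS and IFRD1 matches hold the same 8 letters, and CHAC1 and PPP1R15B share another version on opposite strands. No match was found in the windows of the other 6 genes, which says only that these letters are not in those windows.

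ASNS (ENSG00000070669, chr7:97851677-97928441) encodes asparagine synthetase, which makes asparagine from aspartate. Its footprints were plentiful and its INPUT counts nearly nil. Footprints were 511 and 441 CPM in HCT116, 152 and 654 CPM in HCT15, and 25.8 and 84.5 CPM in SW620, against 43.6 and 32.9 CPM in 841CON. All HCT116 and HCT15 libraries were above 841CON, and SW620, with 3 and 8 counts, overlapped it. Footprints rose in HCT116 (log2 3.63, SE 0.72, adjusted p = 0.000279) and HCT15 (log2 3.39, SE 0.71, adjusted p = 0.000698), both kept in all alternatives and without each library. INPUT counts were 19 and 29 in HCT116, 1 and 1 in HCT15, and 7 and 6 in SW620, against 1 and 0 in 841CON. TE was therefore not tested in these comparisons.

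INPUT RNA of ASNS was called higher in HCT116 (92.3-fold by pooled counts, 95% counting interval 15.8 to 3721, adjusted p = 0.00153) and in SW620 (35.9-fold, interval 5.39 to 1525, adjusted p = 0.0186). The HCT116 call was lost without 841CON INPUT replicate 2 (0.0916) or in the fit of the 2 lines alone (0.0700), and the SW620 call without that library (0.322) or SW620 INPUT replicate 1 (0.0962). RefSeq places the noncoding gene CZ1P-ASNS over 99.4% of the ASNS span. The INPUT tables list 60623 genes, and 20426 are listed for RPF. In the 4 INPUT libraries of the vector and COPS7B lines, 13.8 to 20.7 reads were set aside as ambiguous per 100 counted in genes, against 3.54 to 4.14 in their RPF libraries. The part of this difference in the low INPUT counts of ASNS was not tested, and neither its RNA level nor its ratio is read further here.

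TRIB3 (ENSG00000101255, chr20:380760-397559), a pseudokinase induced by ATF4 and CHOP, had more footprints in HCT116 and HCT15 than in 841CON. Footprints were 194 and 161 CPM in HCT116, 597 and 289 CPM in HCT15, and 25.8 and 137 CPM in SW620, against 29.5 and 39.8 CPM in 841CON. They rose in HCT116 (log2 2.37, SE 0.77, adjusted p = 0.0120) and HCT15 (log2 3.68, SE 0.80, adjusted p = 0.000887). Of these, the HCT116 call was lost without 841CON RPF replicate 1 (0.0915) or with close pairs summed (0.109). INPUT RNA was 330 and 307 CPM in HCT116, 356 and 546 CPM in HCT15, and 72.3 and 103 CPM in SW620, against 186 and 12.96 CPM in 841CON. The 2 libraries of 841CON thus lay far apart.
INPUT RNA of TRIB3 rose in HCT15 (log2 2.24, SE 0.74, adjusted p = 0.0245), a call lost without 841CON INPUT replicate 2 (0.0915) or HCT15 INPUT replicate 2 (0.0861), or in the fit of the 2 lines alone (0.224). The HCT116 change (log2 1.74, SE 0.74, adjusted p = 0.0667) was called without 841CON INPUT replicate 1 (log2 4.64, adjusted p = 4.07e-05) or without trimmed-mean scaling (0.0402). TE passed the test in none of the 3 lines (log2 0.63 in HCT116, 1.44 in HCT15 and 1.31 in SW620, SE 1.03 to 1.21). The sign of the HCT116 TE change turned without 841CON INPUT replicate 1 (log2 -2.28, adjusted p = 0.0192), and the HCT15 change was called without replicate 2 (log2 2.41, adjusted p = 0.0186), so the 841CON INPUT libraries decided both values. The same was seen for INPUT RNA in SW620, at -0.12 with both libraries and 2.69 without replicate 1 (adjusted p = 0.00237).

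CHAC1 (ENSG00000128965, chr15:40953471-40956512), an enzyme that degrades glutathione, had its highest INPUT RNA in 841CON, as did PPP1R15A. INPUT RNA was 42.0 and 49.0 CPM in HCT116, 74.9 and 214 CPM in HCT15, and 9.86 and 10.4 CPM in SW620, against 409 and 567 CPM in 841CON. Every cancer library was below both 841CON libraries. INPUT RNA fell in HCT116 (log2 -3.42, SE 0.93, adjusted p = 0.00630) and SW620 (log2 -5.58, SE 1.08, adjusted p = 0.000421), and the HCT15 change (-1.76, SE 0.86) had an adjusted p of 0.119. Without either HCT116 INPUT library (0.0691 and 0.0588) or with close pairs summed (0.119) the HCT116 call was lost, and the SW620 call was kept throughout.

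Footprints of CHAC1 were 122 and 118 CPM in HCT116, 237 and 116 CPM in HCT15, and 0 and 21.1 CPM in SW620, against 319 and 322 CPM in 841CON. The SW620 values are 0 and 2 counts. Footprints there were 33.7-fold lower (95% counting interval 9.32 to 279; adjusted p = 0.0143), a call lost without SW620 RPF replicate 1 (0.142) or replicate 2 (0.0507). The footprint changes in HCT116 (log2 -1.42, SE 0.86) and HCT15 (log2 -0.87, SE 0.84) did not pass the test, though that in HCT116 did in the fit of the 2 lines alone (1.02e-12). TE was not called in any of the 3 lines (log2 2.01 in HCT116, 0.90 in HCT15 and 0.52 in SW620, SE 1.22, 1.19 and 2.46). The HCT116 TE change was called in the fit of the HCT116 and 841CON libraries alone (0.00409).

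SESN2 (ENSG00000130766, chr1:28259518-28282491) encodes a leucine-sensing inhibitor of mTORC1 signalling. INPUT RNA was 57.4 and 53.9 CPM in HCT116, 50.8 and 54.9 CPM in HCT15, and 21.9 and 9.09 CPM in SW620, against 129 and 92.6 CPM in 841CON. All 6 libraries of these cancer lines were below 841CON. The difference passed the test in SW620 alone (log2 -2.88, SE 0.56, adjusted p = 0.000416), where it was kept throughout. Footprints were 86.0 and 74.7 CPM in HCT116, 97.9 and 66.5 CPM in HCT15, and 8.61 and 10.6 CPM in SW620, against 42.5 and 36.0 CPM in 841CON. HCT116 and HCT15 were above 841CON and SW620, with 1 count a library, below it, and no footprint change was called. Without trimmed-mean scaling the footprint changes were called in HCT116 (0.0228) and HCT15 (0.0370), and the one in HCT116 also in the fit of the 2 lines alone (0.000294). TE was 4.05-fold higher in HCT116 (log2 2.02, SE 0.71, adjusted p = 0.0257) and 4.33-fold higher in HCT15 (log2 2.12, SE 0.70, adjusted p = 0.0440). These calls were fragile. The HCT116 call was lost in 7 of 8 fits without 1 library (adjusted p 0.0554 to 0.0924; it was kept without 841CON INPUT replicate 2). The HCT15 call was lost in 6 of 8 such fits (0.0760 to 0.143; kept without 841CON INPUT replicate 2 or HCT15 RPF replicate 2) and in 6 of 7 alternative fits.

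The rank of each gene within its own line shows how the ratios were spread. The members sat mostly in the lower part of the range in 841CON, with 9 ranked genes between percentile 0 and 43.8. Low ranks were not particular to 841CON. In the COPS7B line the members other than ASNS stood between percentile 1.84 (CHAC1) and 45.5 (PPP1R15A). In the vector line the ranked members ran from 6.15 (ATF4) to 76.4 (CHAC1). In HCT116, DDIT3 (percentile 99.6), PPP1R15A (95.3), CHAC1 (87.9) and SESN2 (74.1) were in the upper part, and IFRD1 (20.9) and ATF5 (0) in the lower. ASNS ranked at percentile 99.96 there, a ratio not read because of its low INPUT counts. The DDIT3 rank in HCT116 rests on 24 INPUT counts over the pair, fewer than the 48 of ASNS, and is uncertain too. LOC128125814 covers 70.5% of the DDIT3 span. PPP1R15B stood at percentile 37.8 in HCT116 and 22.8 in 841CON, with a ratio of 0.230 in HCT116 and 0.299 in 841CON.

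**Figure D3:**
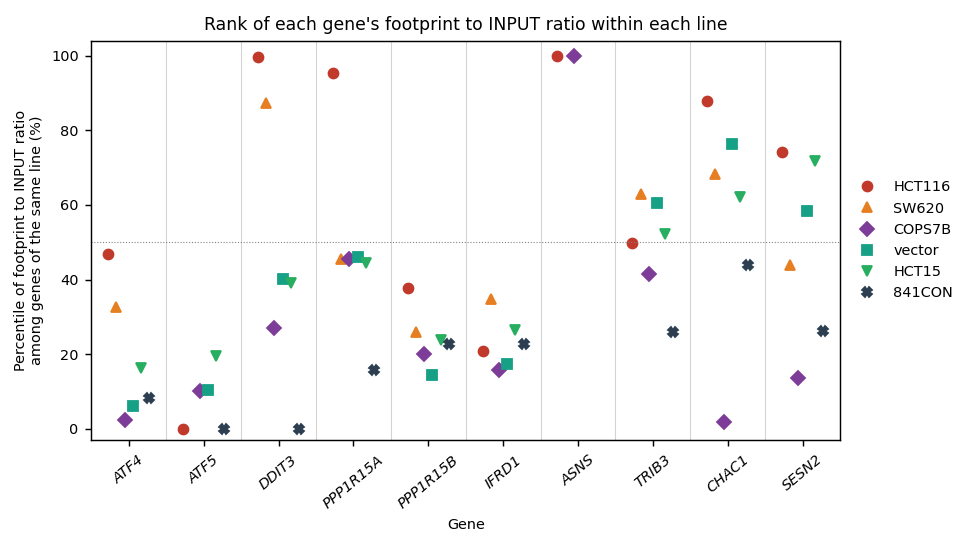
Percentile of each gene's footprint to INPUT ratio (y axis, %) among all genes of the same cell population averaging 10 or more INPUT counts, by gene (x axis), with 1 symbol per population. DDIT3 and PPP1R15A stand near the top in HCT116 and at 0 and 15.9 in 841CON, and CHAC1 is near the bottom in the COPS7B line. The ASNS points at 99.96 in HCT116 and 99.93 in the COPS7B line are not read because of its low INPUT counts. The DDIT3 point in HCT116 is uncertain too, resting on 24 INPUT counts.

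In HCT15 cells overexpressing COPS7B, 3 stress response genes were lower than in the vector line, and none of the 10 was called higher. INPUT RNA fell for 2 of 10 genes, PPP1R15A and TRIB3, where 9.18% of all genes rose and 8.31% fell. Footprints fell for 3 of 10, PPP1R15A, TRIB3 and CHAC1, where 7.92% of all genes rose and 9.42% fell. None of these 3 footprint calls held when the close pair of COPS7B RPF libraries was summed (adjusted p 0.111 to 0.183). TE was called for 0 of 9 members by edgeR and by DESeq2, with 1 of 9 at an unadjusted p under 0.05, and for 0 of all 9542 genes tested (0%), of which 132 had an unadjusted p under 0.05.

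TRIB3 INPUT RNA was 47.8 and 34.1 CPM in the COPS7B line, against 501 and 321 CPM in the vector line. TRIB3 footprints were 29.2 and 38.0 CPM in the COPS7B line, against 642 and 294 CPM in the vector line. Both COPS7B libraries were well below both vector libraries in each assay, and parental HCT15 lay with the vector line. INPUT RNA fell by 3.33 (SE 0.78, adjusted p = 0.00498) and footprints by 3.80 (SE 0.79, adjusted p = 0.00247) on the log2 scale. The INPUT call was lost without COPS7B INPUT replicate 2 (0.0735) and the footprint call without COPS7B RPF replicate 1 (0.0509).

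PPP1R15A INPUT RNA was 119 and 55.2 CPM in the COPS7B line, against 311 and 272 CPM in the vector line. Its footprints were 71.6 and 78.9 CPM in the COPS7B line, against 185 and 329 CPM in the vector line. The groups did not overlap in either assay. Parental HCT15 lay between the COPS7B and vector lines, at 152 and 180 CPM in INPUT RNA and 176 and 93.9 CPM in footprints. The fall below the vector line is thus larger than the difference from the parent. INPUT RNA fell by 1.75 (SE 0.42, adjusted p = 0.00599) and footprints by 1.77 (SE 0.42, adjusted p = 0.00644) on the log2 scale, and the TE change was -0.02 (SE 0.57). The INPUT call was lost without vector INPUT replicate 1 (0.0571) or COPS7B INPUT replicate 2 (0.119), and the footprint call without vector RPF replicate 2 (0.0814) or either COPS7B RPF library (0.0809 and 0.0614).

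CHAC1 footprints were 12.3 and 15.2 CPM in the COPS7B line, against 415 and 42.0 CPM in the vector line. The groups did not overlap, and the vector libraries were far from each other. Footprints fell by 4.06 on the log2 scale (SE 0.96, adjusted p = 0.00643). Without vector RPF replicate 1 the change was -1.50 and the call was lost (0.409), as it was without either COPS7B RPF library (0.0831 and 0.0670). CHAC1 INPUT RNA was 17.0 and 123 CPM in the COPS7B line, against 254 and 43.6 CPM in the vector line, so the INPUT values overlapped (log2 -1.08, SE 0.85, adjusted p = 0.490). Its ratio of footprints to INPUT stood at percentile 1.84 in the COPS7B line, against 76.4 in the vector line, and its TE change was the member with an unadjusted p under 0.05 (log2 -2.97, SE 1.23).

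**Figure D4:**
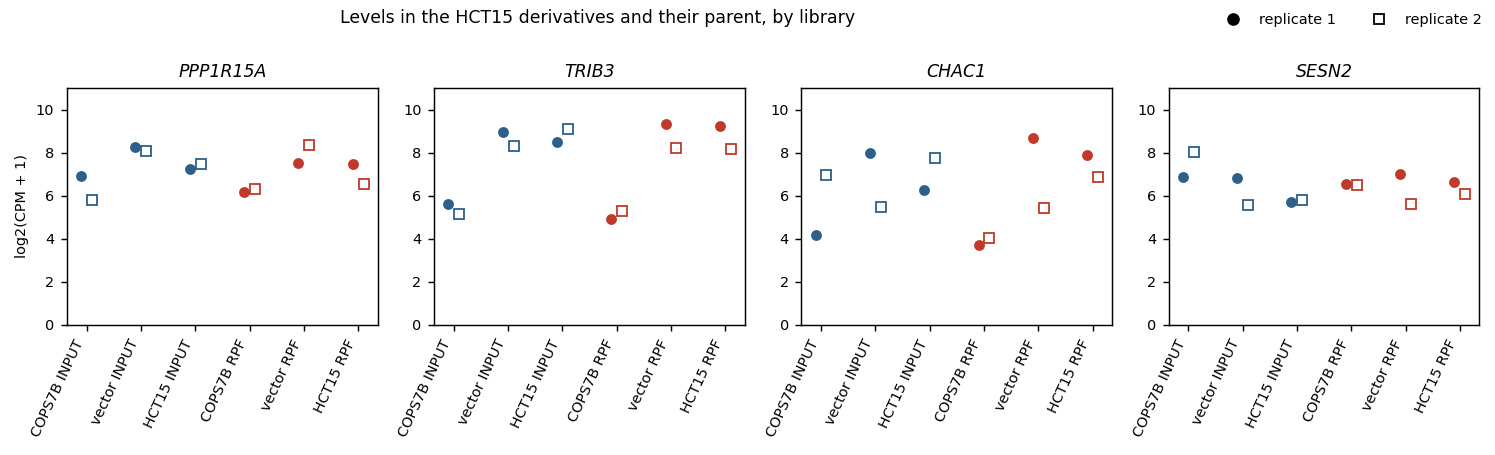
Levels of PPP1R15A, TRIB3, CHAC1 and SESN2 as log2(CPM + 1) (y axis) in INPUT (blue) and RPF (red) libraries of the COPS7B line, the vector line and parental HCT15 (x axis), with replicate 1 filled and replicate 2 open. The COPS7B values of TRIB3 lie below all others in both assays, and the CHAC1 vector libraries lie far apart.

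The other 7 genes were not called in INPUT RNA or footprints between the COPS7B and vector lines. SESN2 INPUT RNA was 117 and 263 CPM in the COPS7B line, against 112 and 46.3 CPM in the vector line (log2 1.25, SE 0.49, adjusted p = 0.0905), and its footprints were 93.6 and 90.1 CPM in the COPS7B line, against 126 and 47.4 CPM in the vector line. ATF5 INPUT RNA was 14.4 and 5.00 CPM in the COPS7B line, against 26.5 and 51.7 CPM in the vector line (log2 -2.03, SE 0.77, adjusted p = 0.0851). Both INPUT changes were called when only the COPS7B and vector libraries were fitted (0.0253 for SESN2 and 0.00138 for ATF5), and that of ATF5 with DESeq2 (0.0447). ATF4 INPUT RNA was 510 and 482 CPM in the COPS7B line, against 712 and 399 CPM in the vector line, and its footprints were 100 and 117 CPM in the COPS7B line, against 198 and 76.8 CPM in the vector line. Its changes were small beside their SE (log2 -0.16, SE 0.42, for INPUT and -0.34, SE 0.43, for footprints). DDIT3 footprints were 8.47 and 11.3 CPM in the COPS7B line, against 25.3 and 11.6 CPM in the vector line (log2 -0.91, SE 0.79, adjusted p = 0.497). PPP1R15B had 124 and 129 CPM of footprints in the COPS7B line, against 79.1 and 112 CPM in the vector line (log2 0.41, SE 0.37, adjusted p = 0.525). IFRD1 had 43.6 and 42.3 CPM of footprints in the COPS7B line, against 40.8 and 31.3 CPM in the vector line. ASNS had 123 and 129 CPM of footprints in the COPS7B line, against 371 and 138 CPM in the vector line (log2 -1.02, SE 0.65, adjusted p = 0.325).

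Between the vector line and parental HCT15, 0 of 10 members were called in INPUT RNA (0.670% of all genes), 0 of 10 in footprints (10.5%) and 0 of 9 in TE (0.175%) by edgeR, and DESeq2 called 0 in each. At an unadjusted p under 0.05 there were 2, 2 and 0 members. Within the vector line, replicate 1 was above replicate 2 for 9 of 10 members in INPUT RNA and 7 of 10 in footprints, where 48.3% and 47.7% of all genes in the fit were. CHAC1 is the clearest case, at 254 and 43.6 CPM in INPUT and 415 and 42.0 CPM in footprints, and PPP1R15A footprints ran the other way at 185 and 329 CPM. In parental HCT15, 7 of 10 members were higher in replicate 2 in INPUT RNA (51.4% of all genes) and 8 of 10 were higher in replicate 1 in footprints (46.6%). In SW620, 8 of 10 were higher in replicate 1 in INPUT RNA (45.6%) and 8 of 10 in replicate 2 in footprints (42.1%), as were 8 of 10 in replicate 2 of the COPS7B footprints (50.6%). These counts give the direction of a difference and not its size. The COPS7B footprint libraries were very close (biological coefficient of variation 0.0397). In the SW620 footprints, CHAC1 and SESN2 had 2 counts each over the pair. CHAC1 in the vector line thus varied widely between libraries of 1 line, and the comparison of the COPS7B and vector lines rests on 2 libraries of each kind.

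Among the 3 cancer lines, TE differed for 3 of 8 members tested, IFRD1, PPP1R15A and DDIT3, where 52.7% of all genes tested differed.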

How the data were processed

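The authors deposited 1 table of raw read counts per gene for each of the 24 libraries. Per the submitters' processing notes, cutadapt 3.5, STAR 2.7.9 and HTSeq 2.0.2 were used with build GRCh38; neither the counted feature nor the strand setting is stated. Per the file contents, INPUT tables list 60623 genes and those for RPF 20426, and the 20426 shared genes were used. Rows that name no gene were left out; the vector and COPS7B tables alone hold them, with 4.75% to 12.6% of reads in no feature, 0.324% to 6.42% ambiguous, 19.2% to 57.8% not aligned and 16.6% to 27.2% not unique.

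Samples were grouped by line and assay from their titles. R 4.3.3 with edgeR 4.0.16 fitted 12 groups of 2 libraries by quasi-likelihood (12 residual degrees of freedom), with genes passing filterByExpr (minimum count 10) in INPUT and in RPF and trimmed-mean scaling within each assay. TE was tested where the mean INPUT count was at least 10 in both lines. SE is the log2 change over the root of F. Bounds take 3 counts over a group at 0; intervals (95%, exact) cover counting error only, and no molecular identifiers are stated. The script was tested on simulated data with large TE changes and less spread between libraries than several groups here had. That test does not show how well smaller changes, or changes in groups with more spread, are called.

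The members, lists and alternatives were chosen with earlier results of these data known, and all 10 members are named. Alternatives were other scalings, DESeq2 1.42.0, no filter, the compared libraries alone, close replicate pairs (common dispersion under 0.01) summed, a replicate block and leaving out each library. Pathway lists, cell type markers and genes of similar pattern were not analysed here, since no table used here pairs their Ensembl identifiers with symbols. Gene spans and promoter sequences come from RefSeq GRCh38.p14, matched by symbol for 10 of 10.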

Additional observations from a re-analysis of the deposited data

Results flagged for a closer look

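The TE of 3 genes differed among HCT116, HCT15 and SW620 by a direct test of the difference (edgeR's quasi-likelihood F test of assay by line). They are 3 of 8 members tested, and 52.7% of all genes tested differed by the same test. IFRD1 had an adjusted p of 0.000264, with 0 and 1 footprint counts in HCT116 and a ratio of footprints to INPUT of 0.0110 there, against 0.495 in HCT15 and 0.498 in SW620. PPP1R15A had an adjusted p of 0.00185, with a ratio of 4.80 in HCT116, 0.814 in HCT15 and 0.641 in SW620. DDIT3 had an adjusted p of 0.0125, with a ratio of 14.02 in HCT116, 0.709 in HCT15 and 1.65 in SW620. The DDIT3 call was lost without HCT116 INPUT replicate 2 (0.0670) or with close pairs summed (0.111).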

How the results depend on the processing

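Member counts called moved by over 1.5 times in these cases. With the compared libraries alone, TE calls were 0 in HCT15 and 1 in SW620, INPUT calls 2 in HCT116, 0 in HCT15 and 3 in SW620 (each against 841CON), and INPUT calls in the COPS7B line against the vector line 4. With close replicate pairs summed, which leaves fewer libraries, TE calls were 0 in HCT15 and 0 in SW620, INPUT calls 2 in HCT116 and 1 in HCT15, and footprint calls of the COPS7B line 0. INPUT calls in HCT15 were 1 with trimmed means over all 24 libraries and 1 without such scaling; footprint calls in HCT15 were 8 without it. Members whose TE differed among the cancer lines numbered 5 with no filter. Beyond construction, the cause was not tested. The share of all genes called under each setting is not printed here. These counts, and those below, are therefore not results about the members alone. With the compared libraries alone, for example, 0 of all genes tested had a TE call in HCT15.

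Leaving out each library, TE calls ranged from 4 to 5 in HCT116, 2 to 6 in HCT15, 1 to 2 in SW620 and 2 to 3 among the cancer lines, and were 0 throughout for the COPS7B and vector comparisons. INPUT calls ranged from 2 to 6 in HCT116, 0 to 3 in HCT15, 4 to 8 in SW620 and 0 to 2 in the COPS7B line, and were 0 throughout for the vector line against HCT15. Footprint calls ranged from 5 to 6 in HCT116, 5 to 6 in HCT15, 4 to 5 in SW620, 0 to 2 in the COPS7B line and 0 to 1 in the vector line. Of single values, 3 turned: TRIB3 without 841CON INPUT replicate 1, in TE of HCT116 (-2.28; 1.59 without replicate 2) and INPUT of SW620 (2.69; -1.08 without replicate 2), and ATF5 footprints in SW620 without SW620 RPF replicate 1 (0; 8.86 fitted without replicate 2).

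Replicate numbers were not taken to pair the samples: INPUT and RPF differences between replicates correlated at -0.119 to 0.0150 across genes within 5 lines and at 0.226 in the vector line, where 8 of 10 members were higher in the same number in both assays. With the replicate block, TE calls were 5 in HCT116, 4 in HCT15, 2 in SW620, 0 in the COPS7B and vector comparisons and 3 among the cancer lines; PPP1R15A in HCT15 lost its call (adjusted p = 0.0595). With SW620 numbers crossed, chosen after seeing the data as were the bounds without single INPUT libraries, TE calls were 2 in SW620 and 3 among the lines. Depth limits SW620 most, where 9 or fewer footprint counts stood behind PPP1R15A, CHAC1, SESN2 and ATF5.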
